A study of Mus musculus with 6 samples.

Results

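The Gadd45 family has 3 members in the mouse, Gadd45a, Gadd45b and Gadd45g, and all 3 were found by symbol among the 54532 genes of the deposited FPKM table. FPKM is the number of reads scaled to gene length and library size. Their mRNA was compared between 3 libraries of cells with a hairpin against Mettl3 (shMettl3_dox) and 3 of cells with a control hairpin (shLuc_dox). Mettl3 encodes the methyltransferase that places N6-methyladenosine (m6A) on mRNA. Both groups were mouse embryonic fibroblasts expressing the adenoviral protein E1A and the activated Ras protein HRasV12, and both received doxorubicin, a topoisomerase II poison that breaks DNA, at 0.2 ug/ml for 6 hours. Since every library is from treated cells, the induction of these genes by the drug is not analysed here. In one deposited table the shMettl3 columns carry the number 2 after the hairpin name, and no other Mettl3 hairpin was analysed here, so the comparison rests on a single hairpin.

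Gadd45 genes encode small acidic proteins that have no known enzymatic activity and act by binding partners. They activate the kinase MAP3K4, which feeds the p38 and JNK cascades, inhibit the CDK1 and cyclin B1 complex at the entry to mitosis, and bind PCNA and p21. Gadd45a is a long-known target of p53 in cells with damaged DNA, Gadd45b was found as an early gene of myeloid differentiation and responds to TGF-beta and NF-kB, and Gadd45g responds to cytokines. The family has also been tied to active DNA demethylation together with excision repair proteins.

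The 3 genes share one architecture, with 4 exons in the main mRNA and a second exon of 102 bases. Exon 2 is shown because its equal length lets the members be compared base by base without gaps. It lies at chr6:67037010-67037111 on the minus strand for Gadd45a, chr10:80930448-80930549 on the plus strand for Gadd45b and chr13:51847352-51847453 on the plus strand for Gadd45g (GENCODE M21 on GRCm38, the assembly of mm10). It is coding throughout. In the lines that follow, capitals mark the 49 of 102 bases that all 3 members share.
Gadd45a exon 2: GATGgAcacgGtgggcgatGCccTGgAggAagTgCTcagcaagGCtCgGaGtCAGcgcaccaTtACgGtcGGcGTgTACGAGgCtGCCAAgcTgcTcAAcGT
Gadd45b exon 2: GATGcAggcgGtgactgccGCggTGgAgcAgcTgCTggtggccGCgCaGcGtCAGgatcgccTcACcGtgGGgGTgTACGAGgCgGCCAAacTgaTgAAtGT
Gadd45g exon 2: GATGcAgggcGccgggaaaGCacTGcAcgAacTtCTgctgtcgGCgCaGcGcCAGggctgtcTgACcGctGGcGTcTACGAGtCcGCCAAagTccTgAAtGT

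Over exon 2, Gadd45b and Gadd45g matched at 65.7% of bases, Gadd45a and Gadd45b at 62.7%, and Gadd45a and Gadd45g at 58.8%. Aligned over the whole coding sequence, identity was 65.5% for Gadd45b and Gadd45g, 62.5% for Gadd45a and Gadd45g and 60.6% for Gadd45a and Gadd45b. The longest identical run between any pair of main mRNAs was 17 bases. The main mRNAs were 1223, 1284 and 1071 bases long for Gadd45a, Gadd45b and Gadd45g, shorter than the median of 3159 bases over the longest coding mRNA of each of 10653 tested genes.

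Because Mettl3 was the gene knocked down, the mRNAs were searched for GGACT, the commonest form of the m6A consensus, on the transcribed strand. Each member holds 1 match in its 5' UTR, whereas 22.6% of the 10653 mRNAs have a match there. These sites are shown with 8 bases on either side and the pentamer in capitals.
Gadd45a mRNA, pentamer at bases 146 to 150: cgagggagGGACTcgcacttg
Gadd45b mRNA, pentamer at bases 183 to 187: tcgtatctGGACTtgtacttt
Gadd45g mRNA, pentamer at bases 27 to 31: cgcgcatcGGACTctgggaat

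The pentamer ends 12 bases before the start codon in Gadd45a, 56 before it in Gadd45b and 71 before it in Gadd45g. Gadd45a has no other match in its main mRNA. Gadd45b has 2 more in its 3' UTR and Gadd45g 3 more there. Per kilobase of mRNA the pentamer occurred 0.818 times in Gadd45a, 2.34 times in Gadd45b and 3.74 times in Gadd45g, where the median was 1.04 and 92.5% of mRNAs held at least 1 match. Gadd45g stood at the 99.5th percentile of this density, Gadd45b at the 93.7th and Gadd45a at the 35.9th. The pentamer ATTTA, the core of AU-rich decay elements, occurred 2 times in the 3' UTR of Gadd45a and in neither of the other members' 3' UTRs. Of all these mRNAs 70.2% have at least 1 in the 3' UTR and 51.4% have 2 or more. These 3' UTRs, of 563, 558 and 489 bases for Gadd45a, Gadd45b and Gadd45g, are shorter than the median of 1162 bases, and the count was not scaled to length. A match is a run of letters and not a measured m6A or decay site.

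**Figure D1:**
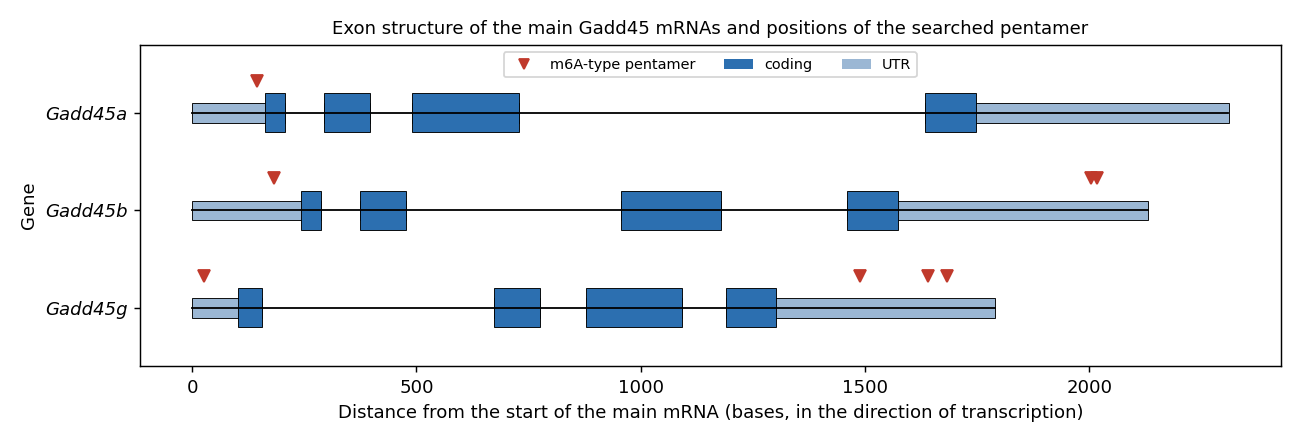
Exons of the main mRNA of each Gadd45 gene, drawn to scale against distance from the mRNA start in bases, with coding parts as tall boxes, UTRs as low boxes and each GGACT match as a triangle. All 3 genes have 4 exons and 1 match before the coding sequence, and Gadd45b and Gadd45g have further matches in the last exon.

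The 250 bases before each RefSeq transcription start (RefSeq on GRCm38.p6) are given because the members have different known inducers. CCAAT boxes, bound by the NF-Y factor, and the octamer ATTTGCAT, bound by POU2F1, are in capitals on either strand. The windows are chr6:67037408-67037657 (minus strand), chr10:80929841-80930090 (plus) and chr13:51846425-51846674 (plus).
Gadd45a promoter: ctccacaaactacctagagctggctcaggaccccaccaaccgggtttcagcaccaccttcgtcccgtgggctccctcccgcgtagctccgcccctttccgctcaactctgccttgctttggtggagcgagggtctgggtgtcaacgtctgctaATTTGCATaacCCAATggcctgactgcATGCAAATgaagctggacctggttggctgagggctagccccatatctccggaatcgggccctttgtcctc
Gadd45b promoter: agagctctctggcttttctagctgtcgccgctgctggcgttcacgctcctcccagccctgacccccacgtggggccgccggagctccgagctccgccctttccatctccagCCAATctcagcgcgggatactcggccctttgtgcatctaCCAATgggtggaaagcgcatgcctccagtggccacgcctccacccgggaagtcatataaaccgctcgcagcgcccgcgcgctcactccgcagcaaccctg
Gadd45g promoter: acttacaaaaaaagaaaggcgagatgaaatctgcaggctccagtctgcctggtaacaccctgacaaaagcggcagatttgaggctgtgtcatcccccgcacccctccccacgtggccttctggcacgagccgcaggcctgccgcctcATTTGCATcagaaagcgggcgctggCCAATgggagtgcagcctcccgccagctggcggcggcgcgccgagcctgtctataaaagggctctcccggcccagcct

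All 3 windows hold a CCAAT box, 2 of them in Gadd45b and 1 each in Gadd45a and Gadd45g; 34.5% of 27025 mouse promoter windows of this length hold one. The octamer, present in 1.61% of windows, occurs in Gadd45a on both strands, at bases -97 to -90 and -70 to -63, and in Gadd45g at -103 to -96. It was not found in the Gadd45b window. TATAAA (13.0% of windows) starts at -46 in Gadd45b and -27 in Gadd45g. CACGTG (6.05%) starts at -185 in Gadd45b and -142 in Gadd45g. GGGCGG (32.9%) is present on the reverse strand in Gadd45a and Gadd45b. TGACGTCA (1.62%) and TGACTCA (4.43%) had no match in the 3 windows, and no matches of these 7 motifs overlapped each other in them.

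The knockdown was checked first. Mettl3 measured 1.29, 1.53 and 1.65 FPKM in the shMettl3_dox libraries, against 2.47, 3.14 and 2.59 FPKM in the shLuc_dox libraries, a ratio of means of 0.545 (change in log2(FPKM + 1) of -0.58, SE 0.108, limma adjusted p = 0.00861). Library depth, taken from the FPKM denominators, was 17493792 to 25214182 reads in shMettl3_dox and 16825813 to 20117092 in shLuc_dox. One library stood apart: shMettl3_dox replicate 3 correlated with its replicates at 0.983 and 0.982 across tested genes, where the other pairs within a group gave 0.985 to 0.988, and limma's array weights gave it 0.343, against 0.858 to 2.37 for the others. Its reads differed from those of its replicates by 12.8 and 14.6 times the chi-square that sampling noise gives, where the other pairs within a group gave 3.46 to 4.79. Of 10 fibroblast markers 5 averaged at least 1 FPKM (Vim, Fn1, Col5a1, Pdgfrb and Pdgfra), while Col1a1, Col1a2, Col3a1, Thy1 and S100a4 were below it. Among other cell types' markers, 1 of 5 leukocyte genes (Cd68), 0 of 4 endothelial genes and 3 of 5 epithelial genes (Krt18, Krt19, Epcam) reached that level. The summed epithelial level was 36.2 to 42.3 FPKM in shMettl3_dox and 58.4 to 61.6 FPKM in shLuc_dox, the summed leukocyte level 9.47 to 11.1 and 15.4 to 18.1 FPKM, the summed endothelial level 0.210 to 0.362 and 0.322 to 0.386 FPKM, and the summed fibroblast level 795 to 865 and 908 to 960 FPKM in the same order of groups. Single genes made up most of 3 of these sums. Mean FPKM in shMettl3_dox and shLuc_dox was 703 and 818 for Vim, 10.1 and 16.8 for Cd68, and 29.1 and 46.2 for Krt18. Of the other fibroblast markers above 1 FPKM, Fn1 (95.6 and 88.5), Col5a1 (16.0 and 14.2) and Pdgfrb (4.93 and 4.57) averaged higher in shMettl3_dox. Pdgfra averaged lower (1.71 and 2.69). The part of these shifts in the results below was not tested.

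None of the 3 Gadd45 genes passed the test, although they lay on opposite sides of 0: Gadd45a averaged lower, and Gadd45b and Gadd45g higher, in shMettl3_dox. By limma 0 of 3 members passed at an adjusted p of 0.05, where 28.1% of the 12098 tested genes did, and 2 of 3 had an unadjusted p under 0.05, as did 40.1% of tested genes. On recovered reads edgeR called 0 of 3 (33.4% of genes called, 3 members with an unadjusted p under 0.05) and DESeq2 0 of 3 (32.0% called, 2 members). All 3 members passed the filter of a mean of 1 FPKM. Gadd45a is not among the 1960 genes of the authors' deposited table of lower genes. That table holds only genes lower in shMettl3_dox, so it could not list Gadd45b or Gadd45g, which averaged higher. In these bulk samples a lower level of an mRNA in every cell and fewer cells that express it cannot be told apart.

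Gadd45a (ENSMUSG00000036390, mm10 chromosome 6, 67035096 to 67037457, minus strand), the p53-responsive member, measured 5.46, 5.90 and 4.05 FPKM in shMettl3_dox replicates 1 to 3, against 6.26, 7.07 and 6.67 FPKM in shLuc_dox replicates 1 to 3. All 3 knockdown libraries were below all 3 controls, and shMettl3_dox replicate 3 was the lowest of the 6. Groups with no overlap in this direction were found for 21.5% of tested genes, and in either direction for 45.1%. The means were 5.14 ± 0.966 FPKM in shMettl3_dox and 6.67 ± 0.405 FPKM in shLuc_dox (SD, n = 3 each), so that the ratio of the means was 0.770. On the log2(FPKM + 1) scale the change was -0.33 (SE 0.118, 95% interval -0.61 to -0.05 without adjustment, limma adjusted p = 0.0772). Without shMettl3_dox replicate 3 it was -0.20 (limma adjusted p = 0.0766), and with the array weights, which count that library least, -0.26 (limma adjusted p = 0.0467, with 36.5% of genes called).

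Gadd45a was also the least deeply measured member. Between 144 and 243 recovered reads stood behind each value in shMettl3_dox and 198 to 251 in shLuc_dox. The coefficient of variation was 18.8% in shMettl3_dox and 6.08% in shLuc_dox, where counting error alone gives 7.26% and 6.79%. A long noncoding gene on the other strand, E230016M11Rik, shares 337 of the 1764 exon bases of Gadd45a, among them 238 of its main mRNA. The strand setting of the counting is not stated in these sources, so reads from that stretch cannot be assigned to one of the genes. E230016M11Rik itself measured 0.341, 0.223 and 0.297 FPKM in shMettl3_dox and 0.215, 0.207 and 0.186 FPKM in shLuc_dox, which is below the filter.

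Gadd45b (ENSMUSG00000015312, mm10 chromosome 10, 80930073 to 80932204, plus strand), the TGF-beta and NF-kB responsive member, measured 17.1, 14.7 and 16.7 FPKM in shMettl3_dox, against 14.0, 14.7 and 12.4 FPKM in shLuc_dox. The groups overlapped only by shMettl3_dox replicate 2 and shLuc_dox replicate 2, which were nearly equal. Groups with no overlap and a higher level in shMettl3_dox were found for 23.6% of tested genes. The means were 16.2 ± 1.31 FPKM in shMettl3_dox and 13.7 ± 1.21 FPKM in shLuc_dox (SD, n = 3 each), so that the ratio of the means was 1.18. On the log2(FPKM + 1) scale the change was 0.22 (SE 0.0808, 95% interval 0.03 to 0.41 without adjustment, limma adjusted p = 0.0816). It reached the threshold without shMettl3_dox replicate 2 (0.29, limma adjusted p = 0.0491, with 20.8% of genes called) and with array weights (0.23, limma adjusted p = 0.0493).

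Gadd45g (ENSMUSG00000021453, mm10 chromosome 13, 51846678 to 51848468, plus strand), the cytokine-responsive member, measured 79.5, 79.3 and 70.5 FPKM in shMettl3_dox, against 70.6, 72.6 and 60.9 FPKM in shLuc_dox. Replicate 3 was the lowest library of both groups, and the groups overlapped. The means were 76.4 ± 5.14 FPKM in shMettl3_dox and 68.0 ± 6.27 FPKM in shLuc_dox (SD, n = 3 each), so that the ratio of the means was 1.12. On the log2(FPKM + 1) scale the change was 0.17 (SE 0.0797, 95% interval -0.02 to 0.36 without adjustment, limma adjusted p = 0.164). Without shLuc_dox replicate 3 it was 0.09 (limma adjusted p = 0.379). Gadd45g had the most reads of the family, with 1628 to 2350 in shMettl3_dox and 1201 to 1712 in shLuc_dox, against 408 to 687 and 331 to 471 for Gadd45b.

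**Figure D2:**
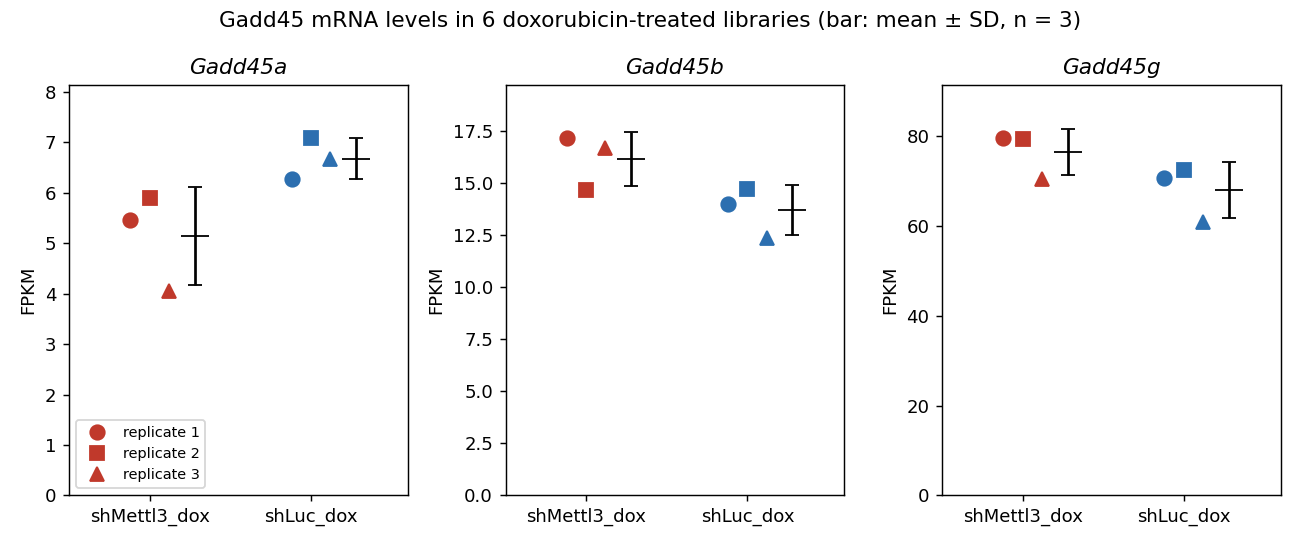
FPKM of each Gadd45 gene in the 3 shMettl3_dox and 3 shLuc_dox libraries, with 1 symbol per replicate number and the mean ± SD as a black bar; each axis starts at 0. Gadd45a separates the groups, with 5.90 FPKM as the highest knockdown library and 6.26 FPKM as the lowest control, while Gadd45b and Gadd45g overlap.

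**Figure D3:**
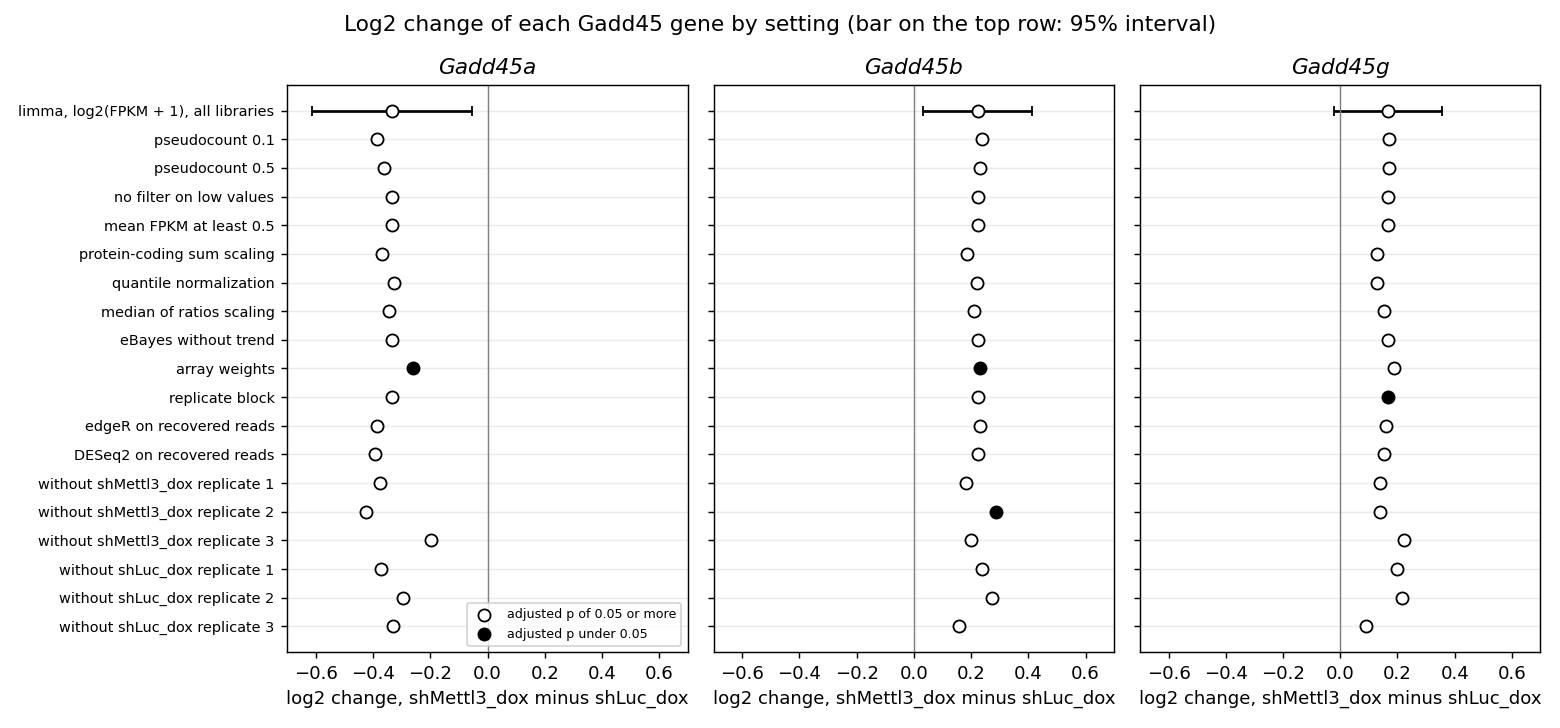
Log2 change of each Gadd45 gene (x axis, shMettl3_dox minus shLuc_dox) under every setting (rows), filled where the adjusted p was under 0.05; the bar on the top row is the 95% interval. Every point for Gadd45a is below 0 and every point for Gadd45b and Gadd45g above it, from -0.42 to -0.20, from 0.16 to 0.29 and from 0.09 to 0.22.

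Per length, Gadd45g was the most abundant member in all 6 libraries, Gadd45b came next and Gadd45a was the lowest, and no library of one member reached the range of another. Among tested genes Gadd45g stood at the 95.2th percentile of mean FPKM, Gadd45b at the 67.2th and Gadd45a at the 38.4th. The family sum was 102, 99.9 and 91.2 FPKM in shMettl3_dox, against 90.9, 94.4 and 79.9 FPKM in shLuc_dox, and the groups overlapped. Its mean was 97.7 ± 5.74 FPKM in shMettl3_dox and 88.4 ± 7.55 FPKM in shLuc_dox (SD, n = 3 each), a difference of 9.35 FPKM, or 5.11 FPKM without shLuc_dox replicate 3. The sum follows Gadd45g, which made up 78.2% ± 1.10 of it in shMettl3_dox and 76.9% ± 0.769 in shLuc_dox. Gadd45a made up 5.23% ± 0.739 in shMettl3_dox and 7.58% ± 0.733 in shLuc_dox. The length used in FPKM is that of all annotated exons, 1764 bases for Gadd45a, 1589 for Gadd45b and 1173 for Gadd45g. Their main mRNAs are shorter, at 1223, 1284 and 1071 bases, by most for Gadd45a. Levels and shares compared between members therefore depend on the length chosen, which is the same in all 6 libraries.

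Ratios within a library do not change when the whole library is multiplied by a single factor, so the balance between members was compared as well. The log2 ratio of Gadd45a to Gadd45b was -1.65, -1.32 and -2.04 in shMettl3_dox, against -1.16, -1.06 and -0.89 in shLuc_dox, with no overlap and a difference in means of -0.63. That of Gadd45a to Gadd45g was -3.86, -3.75 and -4.12 in shMettl3_dox, against -3.50, -3.36 and -3.19 in shLuc_dox, again with no overlap and a difference of -0.56. Both gave an exact two-sided permutation p of 0.1, the smallest that 3 against 3 allows (0.15 adjusted over the 3 ratios). Both also contain Gadd45a, whose own FPKM values did not overlap, so they are not independent of that result or of each other. Of single tested genes 45.1% separated the groups, and the share of gene pairs that do so was not computed. The log2 ratio of Gadd45b to Gadd45g was -2.21, -2.43 and -2.08 in shMettl3_dox, against -2.33, -2.30 and -2.30 in shLuc_dox, where the groups overlapped (difference 0.07, exact permutation p = 0.7). The difference in the ratio of Gadd45a to Gadd45g was larger than the range within either group, while that of Gadd45a to Gadd45b was smaller than the range of its 3 shMettl3_dox values. The design cannot take either p under 0.05.

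**Figure D4:**
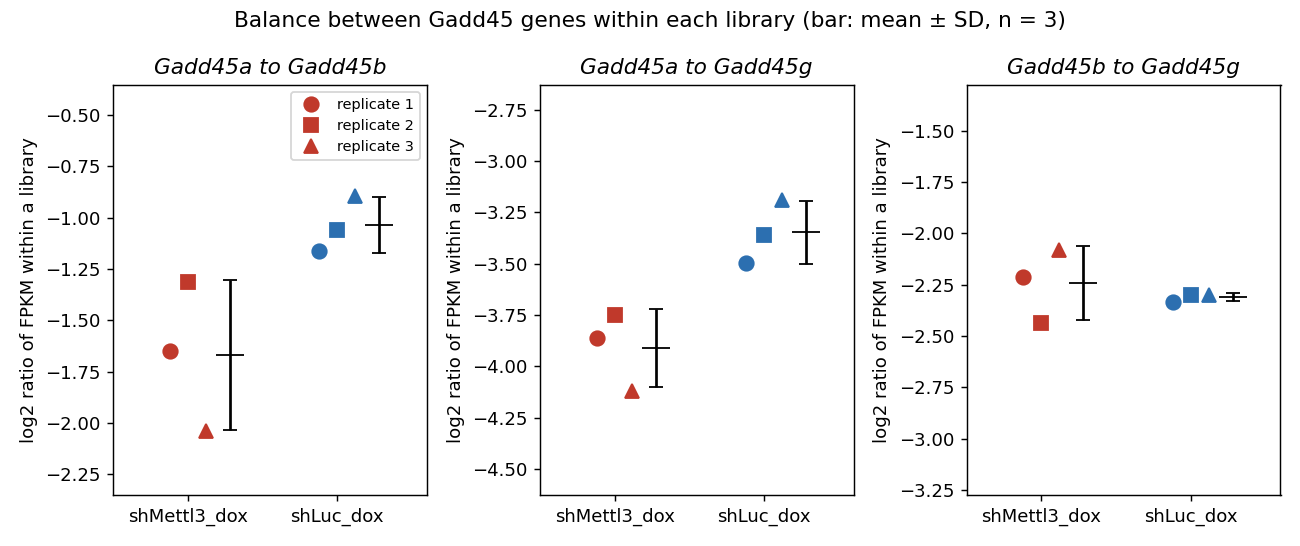
Log2 ratio of FPKM between each pair of Gadd45 genes within a library, for shMettl3_dox and shLuc_dox, with the mean ± SD as a black bar; each axis spans 2 log2 units. The ratios of Gadd45a to Gadd45b and to Gadd45g, which share Gadd45a, separate the groups, and the ratio of Gadd45b to Gadd45g does not.

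Over the 6 libraries the genes whose log2(FPKM + 1) pattern was most like that of Gadd45a were Ifnlr1 (Pearson r = 0.997), C2cd2l (0.994) and Zfp703 (0.990), all with their lowest value in shMettl3_dox replicate 3. For Gadd45b they were Arxes1 (0.986), Nat10 (0.984) and Tmem198 (0.981), and for Gadd45g Ube2e2 (0.997), Cnpy3 (0.987) and Fam129c (0.986). The points are the same 6 libraries in 2 groups and share library scale, and these genes are the top of 12098, so the values are descriptive. Between members, r was 0.72 for Gadd45b with Gadd45g, -0.70 for Gadd45a with Gadd45b and -0.21 for Gadd45a with Gadd45g.

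Genes that work with the Gadd45 proteins were read from the same fit, in which 1763 genes were higher (14.6%) and 1633 lower (13.5%) in shMettl3_dox, with a median log2 change of 0.01 over all tested genes. Scaling each library by its protein-coding sum gave 1264 higher and 1923 lower. The count of higher genes was 1060 without shMettl3_dox replicate 1 and 1059, 1013 and 1146 without shLuc_dox replicates 1, 2 and 3, and the count of lower genes was 1060 without shLuc_dox replicate 2.

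In the p38 and JNK cascade, the kinase arm that Gadd45 proteins switch on, 1 of 12 tested members rose and 3 fell, with a median log2 change of -0.02. Map3k4, the kinase to which Gadd45 proteins bind, rose to 4.18 ± 0.0728 FPKM in shMettl3_dox, against 3.45 ± 0.194 FPKM in shLuc_dox (log2 change 0.22, limma adjusted p = 0.0382). Its call was lost without any 1 of the 6 libraries (limma adjusted p from 0.0732 to 0.113) and under the protein-coding scaling. Mapk14, which encodes p38 alpha, fell to 24.9 ± 0.275 FPKM in shMettl3_dox, against 30.0 ± 0.515 FPKM in shLuc_dox (-0.26, limma adjusted p = 0.00317). Mapk9, which encodes the kinase JNK2, fell to 15.2 ± 0.665 FPKM in shMettl3_dox, against 18.7 ± 0.528 FPKM in shLuc_dox (-0.29). Mapk13, the delta form of p38, fell to 1.38 ± 0.138 FPKM in shMettl3_dox, against 2.31 ± 0.230 FPKM in shLuc_dox. The change was -0.47 on the log2(FPKM + 1) scale, a call lost without shLuc_dox replicate 1 or 2 (limma adjusted p from 0.0521 to 0.0554). The MAP2 kinases Map2k3 (-0.09), Map2k4 (-0.20), Map2k6 (-0.03) and Map2k7 (0.00) did not pass; without shMettl3_dox replicate 3, Map2k4 did (limma adjusted p = 0.0106), and edgeR and DESeq2 called it lower with all libraries. The MAP kinase genes Mapk11 (0.19, limma adjusted p = 0.0707), Mapk8 (0.15) and Mapk12 (0.02) averaged higher and did not pass, nor did Mapkapk2 (-0.01). Mapk10 was below the filter.

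All 6 cell cycle genes of the list passed, 4 upward and 2 downward, where 14.6% and 13.5% of tested genes did. The targets of Gadd45 inhibition at the G2 to M transition rose: Ccnb1, the cyclin, to 56.2 ± 3.42 FPKM in shMettl3_dox, against 43.6 ± 1.01 FPKM in shLuc_dox (log2 change 0.36, limma adjusted p = 0.00364), and Cdk1, its kinase, to 55.4 ± 1.54 FPKM in shMettl3_dox, against 47.2 ± 2.92 FPKM in shLuc_dox (0.23, limma adjusted p = 0.0201). The mitotic kinase gene Aurka rose by 0.36. Gadd45gip1, named for its binding to Gadd45g and a part of the mitochondrial ribosome, rose to 11.6 ± 1.66 FPKM in shMettl3_dox, against 8.98 ± 0.233 FPKM in shLuc_dox (0.33, limma adjusted p = 0.0434). Cdkn1a, which encodes p21, fell to 254 ± 7.16 FPKM in shMettl3_dox, against 382 ± 3.27 FPKM in shLuc_dox (-0.59, limma adjusted p = 0.000252), and Pcna, the replication clamp gene, fell by 0.23 (limma adjusted p = 0.0265). Cdk1 lost its call without shMettl3_dox replicate 1 or shLuc_dox replicate 2 or 3 (limma adjusted p from 0.0604 to 0.0716), and Pcna without shMettl3_dox replicate 1 or shLuc_dox replicate 1 or 2 (0.0552 to 0.0917). Gadd45gip1 kept it only without shMettl3_dox replicate 3 (0.0947 to 0.121 without each other library) and lost it under the protein-coding scaling, quantile normalization and eBayes without trend.

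Of 22 tested transcription factors known to act on Gadd45 genes, 4 rose, 7 fell and 11 did not pass, with a median log2 change of -0.04. Trp53, the p53 gene, fell to 75.8 ± 2.03 FPKM in shMettl3_dox, against 86.7 ± 2.88 FPKM in shLuc_dox (-0.19, limma adjusted p = 0.0167). Egr1, an immediate-early factor, fell to 118 ± 4.22 FPKM in shMettl3_dox, against 193 ± 0.344 FPKM in shLuc_dox (-0.71, limma adjusted p = 0.000127). The subunits of NF-Y, the factor of the CCAAT boxes printed above, moved apart: Nfyb fell to 13.1 ± 0.0272 FPKM in shMettl3_dox, against 18.5 ± 0.697 FPKM in shLuc_dox (-0.47), Nfyc rose to 18.4 ± 0.815 FPKM in shMettl3_dox, against 14.6 ± 0.717 FPKM in shLuc_dox (0.32), and Nfya was at 0.18 and did not pass (limma adjusted p = 0.105). Pou2f1, the octamer factor gene, had a log2 change of -0.01 (95% interval -0.22 to 0.19).

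Atf4, the main factor of the integrated stress response, rose by 0.41 (102 ± 2.92 FPKM in shMettl3_dox and 75.9 ± 3.22 FPKM in shLuc_dox). Myc, a repressor of Gadd45a, rose by 0.38 and Jund by 0.38. Stat3 fell by 0.40, Smad3, which carries TGF-beta signals, by 0.36, Foxo1 by 0.26 and Foxo3 by 0.24. The NF-kB subunit genes Rela (-0.04) and Nfkb1 (0.05) did not pass. Wt1 was below the filter, at 0.416, 0.415 and 0.424 FPKM in shMettl3_dox and 0.0887, 0.0481 and 0.0576 FPKM in shLuc_dox, and was not tested in the main fit. In the fit without the filter limma called it higher, on only 10, 6 and 6 recovered reads in the shLuc_dox libraries. Trp53 lost its call without replicate 1 or 2 of either group (limma adjusted p from 0.0531 to 0.0629), Myc without any shLuc_dox library (0.0619 to 0.0845) and Foxo3 without shMettl3_dox replicate 1 or shLuc_dox replicate 2 or 3 (0.0501 to 0.0520). Foxo1 and Jund lost theirs without any library but shMettl3_dox replicate 3 (limma adjusted p from 0.0725 to 0.137 and from 0.0631 to 0.101), and Nfya gained one without that library (0.0223), and by edgeR and DESeq2 with all libraries. Foxo1 also lost its call without the filter and under quantile normalization, and Jund without the filter and with eBayes without trend.

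Among 12 tested demethylation and excision partners 1 rose and 3 fell, with a median log2 change of -0.13; edgeR and DESeq2 called 5 lower, adding Tet1 and Tet2. Mbd4, a mismatch-specific glycosylase gene, fell to 5.16 ± 0.602 FPKM in shMettl3_dox, against 7.91 ± 0.229 FPKM in shLuc_dox (-0.54, limma adjusted p = 0.00369). Ercc5, which encodes the endonuclease XPG that binds Gadd45a, fell to 28.9 ± 0.903 FPKM in shMettl3_dox, against 37.0 ± 0.713 FPKM in shLuc_dox (-0.35), and the maintenance methyltransferase gene Dnmt1 fell by 0.23. Ercc1 rose by 0.19, a call that survived only the removal of shMettl3_dox replicate 3 (with any other library left out, limma adjusted p from 0.0691 to 0.0979) and lost under the protein-coding scaling. Tdg, the glycosylase gene of active demethylation, had a log2 change of 0.03 (95% interval -0.11 to 0.17), and Neil2 was below the filter.

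Of the 5 other genes named for growth arrest and DNA damage or for the myeloid differentiation response, 2 fell and 0 rose (limma, also 0 at an unadjusted p under 0.05, and 0 by edgeR and DESeq2), with a median log2 change of -0.22. Ddit4, an inhibitor of mTORC1, fell, with 69.6, 74.8 and 52.7 FPKM in shMettl3_dox, against 121, 115 and 99.6 FPKM in shLuc_dox (-0.77, limma adjusted p = 0.00693). Myd88, a receptor adaptor gene, fell by 0.34 (limma adjusted p = 0.0328), a call kept only without shMettl3_dox replicate 2 (0.0538 to 0.105 without each other library). Ddit3, also called Gadd153, was at -0.22 and Ppp1r15a, also called Gadd34, at 0.11, and neither passed (limma adjusted p = 0.129 and 0.358).

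Of 7 genes for proteins that control Gadd45a mRNA, 1 rose and 1 fell, with a median log2 change of 0.05. Parn, a deadenylase gene, fell to 9.03 ± 0.347 FPKM in shMettl3_dox, against 11.1 ± 0.256 FPKM in shLuc_dox (-0.28, limma adjusted p = 0.00649). Tia1 rose by 0.19 (limma adjusted p = 0.0469), a call kept only without shMettl3_dox replicate 2 (0.0860 to 0.124 without each other library) and lost under the protein-coding and median of ratios scalings. The others, Hnrnpd, Tial1, Elavl1, Hnrnpa0 and Mapkapk2, had log2 changes from -0.04 to 0.20; without shMettl3_dox replicate 3, Hnrnpd and Hnrnpa0 passed (limma adjusted p = 0.0171 and 0.0208).

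**Figure D5:**
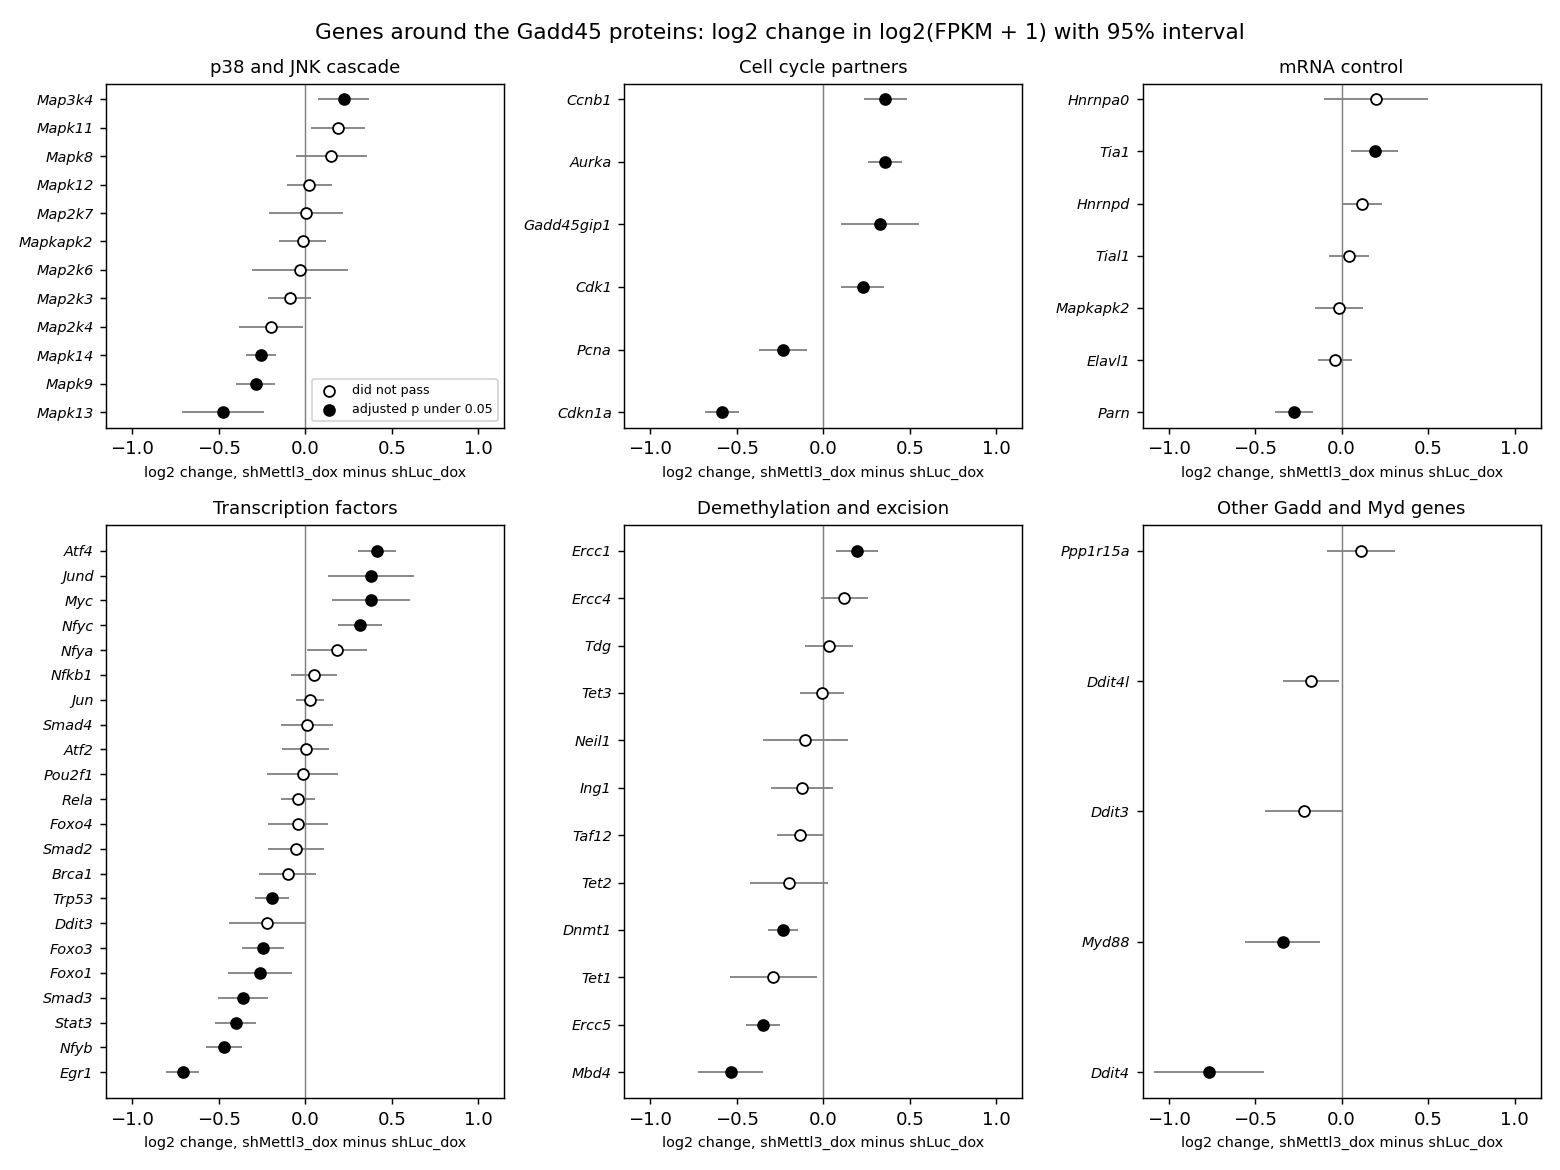
Log2 change in log2(FPKM + 1), shMettl3_dox minus shLuc_dox, with its 95% interval for the tested genes of the 6 pathway lists, filled where the limma adjusted p was under 0.05. All 6 cell cycle genes are filled, with Ccnb1 and Aurka at 0.36 and Cdkn1a at -0.59, and the transcription factors run from Egr1 at -0.71 to Atf4 at 0.41.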

How the data were processed

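Per the submitters' processing notes, the tools were STAR, fastp, DESeq2 and featureCounts 1.5.3 on mm10, with no roles or parameters stated there. The authors deposited FPKM for 54532 genes. A second table deposited by the authors lists 1960 lower genes with a normalized count signal for each library, log2 fold changes and p-values. No value of it is printed here directly. Its counts gave each library's factor for turning FPKM into reads, printed above as library depth, and the reads of the genes it lists. Whole reads were recovered, as FPKM times library factor times GENCODE M21 exon length, for 96.6% of the 26328 genes above 0 (within 0.001 of a read). For 859 others another length served, which fixes their reads only up to a common multiple, and 25 gave none. The labels do not name separate cultures, so p-values cover only the variation among these libraries, possibly technical. No pair of replicates agreed within sampling noise: over genes with at least 20 reads in a pair, chi-square divided by its degrees of freedom was 3.46 to 14.6.

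The main test was limma 3.58.1 (R 4.3.3) on log2(FPKM + 1), eBayes with trend, for the 12098 genes averaging 1 FPKM or more, two-sided, Benjamini-Hochberg adjusted over all of them, threshold 0.05. Fold changes on this scale understate the change of low genes. edgeR 4.0.16 (quasi-likelihood) and DESeq2 1.42.0 ran on recovered reads of 12087 genes. The scripts were tested on simulated data. Python 3.11.15, scipy 1.17.1 and matplotlib 3.10.9 were used. Of rows that share a symbol the highest was taken.

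Members and lists were chosen with earlier results of these data known. The text names the members, Mettl3, up to 6 called genes per list by smallest p, Trp53, and the 3 protein-coding genes most correlated with each member; other genes complete a count and were chosen after their values were seen.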

Additional observations from a re-analysis of the deposited data

How the results depend on the processing

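The log2 changes of Gadd45a, Gadd45b and Gadd45g kept their direction under all 18 alternatives: 2 other pseudocounts, 2 other filters, 3 other scalings, eBayes without trend, array weights, the replicate block, edgeR, DESeq2 and leaving out each library. Array weights brought Gadd45a (-0.26) and Gadd45b (0.23) under the threshold. Leaving out 1 library gave -0.42 to -0.20 for Gadd45a, 0.16 to 0.29 for Gadd45b and 0.09 to 0.22 for Gadd45g. The labels do not say whether same-numbered libraries were paired, so the main test used no pairing. Over all tested genes, same-numbered libraries deviated together at r = 0.034, -0.0068 and 0.0631, and not every library correlated best with its own number. Low values of this kind cannot exclude a pairing. With the replicate number as a block Gadd45g was at 0.17 with a limma adjusted p of 0.0309, 26.5% of genes were called, and Gadd45a and Gadd45b were not; Foxo1 lost its call and Ddit3 gained one, so that 3 other Gadd and Myd genes were lower. With 1 library left out the genes higher numbered 1013 to 1854 and the genes lower 1060 to 1646. The cell cycle list had 2 to 4 higher and 1 to 2 lower, the transcription factors 2 to 5 higher and 4 to 7 lower, the other Gadd and Myd genes 1 to 2 lower, the p38 and JNK cascade 0 higher, the demethylation partners 0 to 1 higher and the mRNA control genes 0 to 2 higher. The lone higher member of each of the last 3 lists, Map3k4, Ercc1 and Tia1, was lost, leaving 0 by limma, without the filter, under the protein-coding scaling and under the replicate block. Ercc1 and Tia1 were also lost without the trend, and Tia1 with a filter of 0.5 FPKM and median of ratios scaling; with no alternative applied, an unadjusted p under 0.05 was reached upward by 2, 1 and 2 members of these lists, and edgeR and DESeq2 called 1 in each. Array weights gave 2 higher in the cascade and 3 among mRNA control genes. Without the filter Foxo1, Jund, Myc, Pcna, Gadd45gip1 and Myd88 lost their calls, so that 1 cell cycle gene and 1 other Gadd or Myd gene were lower. Wt1, which the filter removes, was called higher in that fit. The transcription factors then had 3 higher (Nfyc, Atf4 and Wt1) and 6 lower. With the filter, edgeR and DESeq2 each called 5 demethylation partners lower. The cause of these shifts was not tested. Gadd45a had the fewest reads of the family, 144 to 251 per library, and its coefficient of variation in shMettl3_dox, 18.8%, was above the 7.26% that counting error gives.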
